A study of Homo sapiens with 6 samples.

Results

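The MYC, MAX and MXD network was followed on 6 Affymetrix U133 Plus 2.0 arrays of total RNA from JJN3, a long-established human line of malignant plasma cells (myeloma). On 3 arrays CKS1B was knocked down by a short hairpin RNA (shRNA) from a viral vector, and the other 3 carried a scrambled hairpin in the same kind of vector as control. All 6 arrays are thus of transduced cells of 1 line. The letters A to C come from the array titles, and each occurs in both groups. The titles number arrays of the same letter consecutively, but whether a letter marks a pair is not stated. Values below are given in the order A to C, and scrambled array B has 1 more word in its title, left unexplained. Separate cultures are nowhere stated. The p-values therefore speak of the spread among these arrays alone, and that spread may be technical. The network was taken as 10 genes: the activators MYC and MYCN, their partner MAX, the repressor partners MXD1, MXI1, MXD3, MXD4, MNT and MGA, and MLX. Their probe sets were found by Entrez identifier, keeping those annotated with 1 gene. This gave 33 of 54613 probe sets, for 9 of 19775 genes. The 3 probe sets of MXD4 were also annotated with the microRNA gene MIR4800, so MXD4 is named without a value.

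MYC is a transcription factor of the basic helix-loop-helix leucine zipper family that binds DNA only as a dimer with MAX. The MXD proteins, MXI1 and MNT compete for MAX and recruit SIN3 and histone deacetylases to the same sites, while MGA joins MAX to a Polycomb complex. MLX is a MAX-like protein that dimerises with the glucose-sensing Mondo proteins and with some of the repressors. MYC drives growth and ribosome production, and its activation is a frequent step in the progression of myeloma.

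The sites that these dimers bind most tightly carry the E-box CACGTG, which reads the same on both strands. The RefSeq start-site windows of 300 bases in build GRCh38.p14, each reaching from 250 bases before to 50 after a start, were searched for it. For the 9 genes other than MYC 14 windows were searched. CACGTG lay in 3 of these 14 windows, those of MLX, MNT and MXD4, and in 7.26% of the 35116 windows of all genes. The stretches below show it in capitals with its neighbouring bases. In MLX (chr17:42567020-42567085, plus strand) the E-box starts 50 bases before the start site. In MNT (chr17:2401218-2401283, minus strand) and MXD4 (chr4:2262312-2262359, minus strand) it starts 193 and 238 bases before.
MLX: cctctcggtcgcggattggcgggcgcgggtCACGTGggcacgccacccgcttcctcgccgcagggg
MNT: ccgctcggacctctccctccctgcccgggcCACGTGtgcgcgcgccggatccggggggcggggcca
MXD4: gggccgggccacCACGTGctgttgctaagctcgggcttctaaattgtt
The MXD1 window, shown because MXD1 is the repressor whose brighter probe sets separated the groups, held no CACGTG but 3 copies of the looser E-box CANNTG, in capitals here (chr2:69914859-69914998, plus strand). CANNTG includes CACGTG and was found in 68.7% of all windows.
MXD1: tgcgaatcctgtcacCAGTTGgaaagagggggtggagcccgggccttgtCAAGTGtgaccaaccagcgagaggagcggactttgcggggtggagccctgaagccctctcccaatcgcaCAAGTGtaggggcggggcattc
Such matches describe the letters only, and no binding was measured.

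Levels are MAS5 values, a linear brightness scale whose trimmed mean is 500 on every array, given as mean ± SD (n = 3) or array by array. Levels of different probe sets are not comparable, so each probe set was read against its own scrambled mean, and where genes are ranked, it is by these log2 deviations. A log2 difference is the CKS1B shRNA mean minus the scrambled mean of log2(value + 16), a scale on which dim probe sets show less than their full change. Fewer cells that express a gene and less RNA of it per cell cannot be told apart in such samples. CKS1B, the target, read 8266, 8441 and 7294 with the scrambled shRNA and 481, 269 and 828 with its own shRNA, so the groups did not overlap (log2 -4.02, limma adjusted p = 0.246, and -3.63 with an adjusted p of 0.00135 without CKS1B shRNA array B). CKS1B shRNA array B stood apart: its log2 values correlated with those of other arrays at 0.577 to 0.610, against 0.879 to 0.958 among the other 5. The 3'/5' ratio of the actin control, which rises when RNA is degraded, was 12.4 there, 2.93 on CKS1B shRNA array C and 1.05 to 1.66 on the rest. That of the GAPDH control was 4.70 on CKS1B shRNA array B, 1.18 on array C and 0.98 to 1.17 on the rest. The main values are therefore also given without array B. Of 10 plasma cell markers 9 were above the array median. Among them IRF4 read 3529 to 10257, SDC1 552 to 1684 and PRDM1 2724 to 6031, while SLAMF7 was dim. PAX5, of mature B cells, was dim as well, but MS4A1 (CD20) read 4578 to 7996. Of 4 mature B cell markers 3 were above the median. So were 4 of 5 T and NK cell markers, 3 of 6 stromal and 1 of 2 erythroid markers. Lying above the median thus did not set the plasma cell markers apart. The summed level of T and NK cell markers was 3534 on CKS1B shRNA array B and 636 to 1376 on the others. That of stromal markers was 2279 on array B and 678 to 1525 elsewhere. Dim probe sets read high on that array in general, as 65.8% of those below the median had their highest value there, and CD8A went the other way (38.7 against 271 to 344). Of monocyte markers 0 of 3 were above the median. The part of these markers in the results was not tested.

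With all 6 arrays no gene of the network passed an adjusted p of 0.05 in limma. Nor did any other gene, since 0 of 12663 passed (0%) and 373 (2.95%) had an unadjusted p under 0.05. Among the 33 probe sets of the network, 0 had an unadjusted p under 0.05 in the fit over all probe sets, where 1.77% did. In the gene fit 1 of 9 was under it, MXD1. In 2 of the 9 genes, MXD1 and MLX, all CKS1B shRNA arrays read higher than all scrambled arrays, a pattern of 4.94% of all genes tested. In 0 of 9 did all read lower, against 6.41% of all genes. Without CKS1B shRNA array B the first pattern held in 3 of 9, MXD1, MLX and MAX (13.7% of all genes), and the second in 0 (14.6%, or 28.3% for both patterns). In that fit 0 of 9 passed limma, where 6 of 12612 genes (0.0476%) passed. The unadjusted p was under 0.05 there for 1 of 9, MAX, against 9.65% of all genes. The network is small, and these counts are a description that sets it apart from no other genes.

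**Figure D1:**
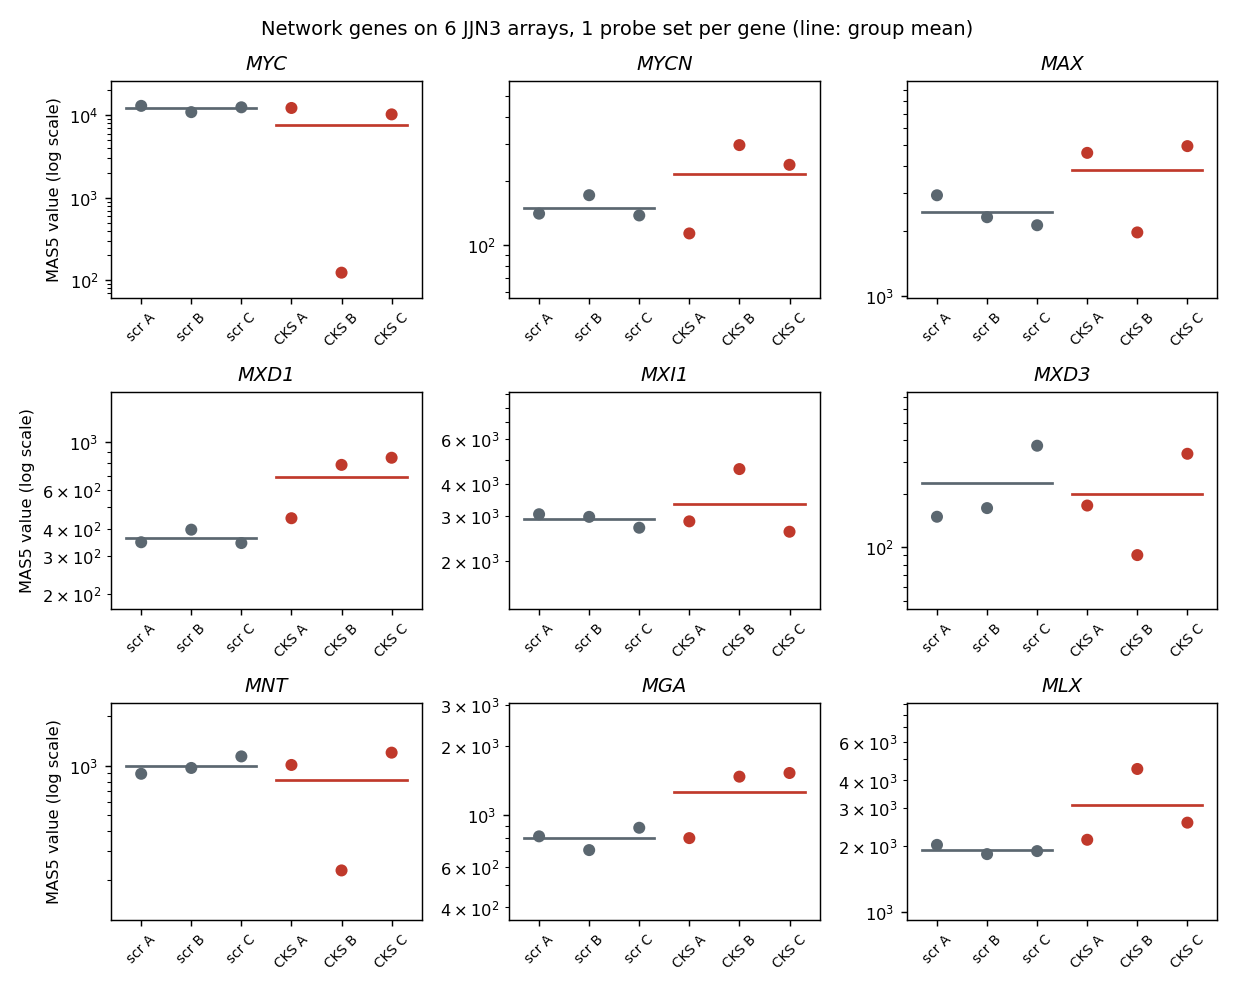
MAS5 value (log scale) of the probe set used for each of the 9 network genes on scrambled (scr, grey) and CKS1B shRNA (CKS, red) arrays A, B and C, with the mean of each group as a line. MYC sits between 10254 and 13003 on 5 arrays and at 124 on CKS1B shRNA array B. MXD1 and MLX are the genes in which all red points lie above all grey points.

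MYC was nearly level on 5 of the 6 arrays and far lower on the other, CKS1B shRNA array B. The array holds 1 MYC probe set, 202431_s_at. With the scrambled shRNA it read 13003, 10918 and 12495 (12139 ± 1087, SD, n = 3), and with the CKS1B shRNA 12264, 124 and 10254 (7547 ± 6507, SD, n = 3). Of the CKS1B shRNA arrays, A lay within the scrambled range, array C just below it and array B far below it, so the groups overlapped. The log2 difference was -2.22 (SE 1.55, limma adjusted p = 0.933), and the exact permutation test (two-sided) gave p = 0.2, where 3 arrays against 3 allow no less than 0.1. Without array B the difference was -0.11 (SE 0.21, adjusted p = 0.880). Array B thus carried most of the difference between the means. Its value of 124 is higher than 20.1% of all probe sets on that array, in the dim range, where MYC on scrambled array A is higher than 99.3%. No detection calls were at hand, so differences that rest on the value of array B have no exact size. Their direction, too, rests on that array alone.

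Many bright genes read low on CKS1B shRNA array B. For the 500 genes closest to MYC in scrambled level, the median log2 deviation from their own scrambled means was -2.27 on that array and lay between -0.04 and 0.40 on the remaining 5. MYC deviated by -6.44, and 1.8% of these genes deviated as far down or farther. On CKS1B shRNA arrays A and C, where their medians were 0.21 and 0.40, MYC deviated by 0.02 and -0.24, with 15.8% and 11.6% of the 500 at or below it. On the scrambled arrays that share was 7% to 73.2%, a range that holds both. The actin 3'/5' ratio of 12.4 belongs to the same array, and its part in this value was not tested. With a single MYC probe set on the array, no other probe set of the gene can be set beside it.

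**Figure D2:**
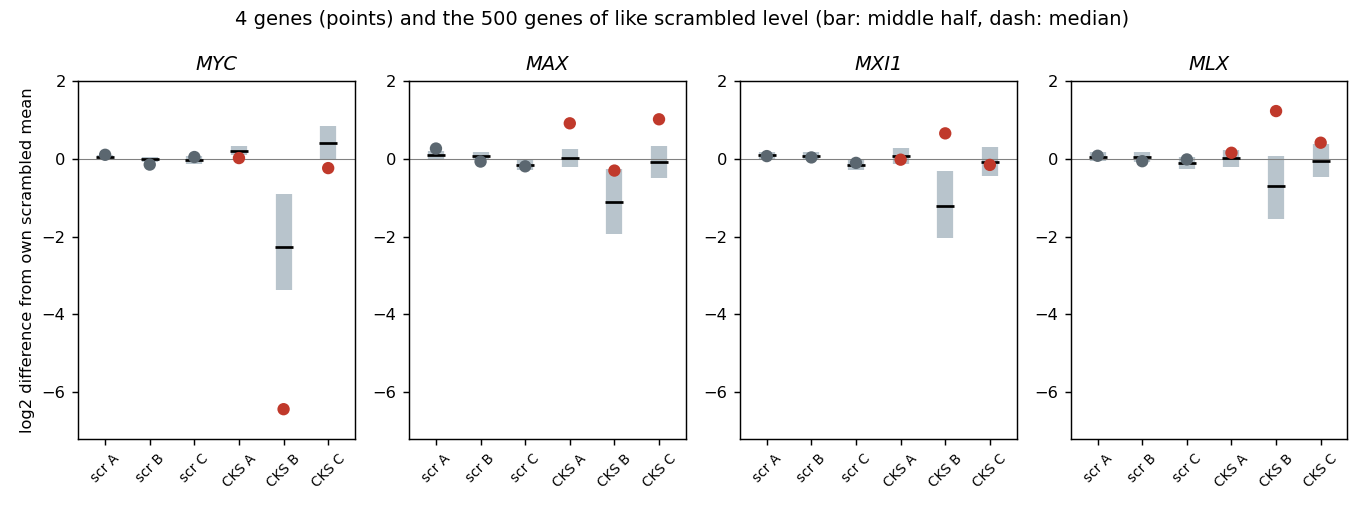
Log2 difference of MYC, MAX, MXI1 and MLX (points; grey scrambled, red CKS1B shRNA) from their own scrambled means on each array, beside the same for the 500 genes nearest in scrambled level (grey bar, interquartile range; dash, median). On CKS1B shRNA array B the bars drop for all 4 genes, MYC at -6.44 lies below its bar, and MXI1 at 0.65 and MLX at 1.23 lie above theirs.

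The genes whose log2 values followed MYC most closely over the 6 arrays were VOPP1, NDUFB5, DNAJC2, STX16 and MTHFD1, with Pearson correlations above 0.999. VOPP1 read 6947 to 8179 on 5 arrays and 69.4 on CKS1B shRNA array B. MTHFD1, an enzyme of folate metabolism, read 7543 to 7989 and 248 there. These correlations over 6 arrays of 1 cell line rest on the low value of array B, and 2455 genes (19.4%) exceeded 0.9. The SD of MYC on the log2 scale was 2.61 with array B and 0.14 without it, and the same 5 genes correlated with MYC at 0.778 to 0.974.

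MYCN, the family member best known from neuroblastoma, was dim. Of its 10 probe sets 8 lay below the median of all probe sets (a value of about 146). The brightest (242026_at) read 141, 172 and 138 in the scrambled group and 114, 295 and 239 in the CKS1B shRNA group. Arrays B and C lay above the scrambled range and array A below it, so the groups overlapped (log2 0.39, SE 0.55, limma adjusted p = 0.933). The other one above the median, 234298_at, read 160, 106 and 370.5 against 117, 681 and 36.1, an order of its own. Without array B the brightest was 234253_at, at 53.2, 47.9 and 924 against 179 and 380 on arrays A and C (log2 0.79). On array B 9 of 10 MYCN probe sets read above all scrambled arrays, where 55.8% of all probe sets did. The dim probe set 234376_at, for instance, read 785 there and 9.3 to 83.6 elsewhere. On arrays A and C 3 of 10 each read above, where 16.5% and 22.4% of all probe sets did. On the same arrays 3 and 2 of 10 read below (30.8% and 29.4% of all), so no direction was shared by the probe sets. Through 234169_at, which read 32.5 to 68 with the scrambled shRNA and 100.2 to 120.6 with the CKS1B shRNA, and 209756_s_at, which read 23 to 32.4 and 33.8 to 60, the groups did not overlap. In all, 6 of the 33 network probe sets read higher in this way and 0 lower, against 4.17% and 3.6% of all probe sets (7.77% together). Without array B 7 read higher and 1 lower, against 7.99% and 13.7%, and 0 of 33 passed limma, where 0.0201% of all probe sets did.

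MAX, the obligate partner of MYC and of the repressors, had its highest values under the CKS1B shRNA on arrays A and C, while on array B it lay within or below the scrambled range. The brightest probe set, 209332_s_at, read 2931, 2320 and 2130 with the scrambled shRNA, and 4604, 1973 and 4948 with the CKS1B shRNA. Arrays A and C exceeded every scrambled array, and array B was the lowest of all 6. The log2 difference was 0.54 (SE 0.45, limma adjusted p = 0.933). Without array B it was 0.96 (SE 0.22, unadjusted p = 0.00156, adjusted p = 0.347), the largest among the 9 genes in that comparison. Of the 500 genes nearest in scrambled level, 98.2% on array A and 95% on array C deviated from their own scrambled means by no more than MAX did upwards, and 18.6% to 88.8% on the scrambled arrays.

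The other MAX probe sets followed this order on array A for the most part but not on array C. The probe set 209331_s_at read 1564, 874 and 847 on the scrambled arrays and 2265, 54.1 and 854 on the CKS1B shRNA arrays. Its value on array B was the lowest, and that on array C lay within the scrambled range. The probe sets 210734_x_at and 208403_x_at, of a class that can bind related sequences, read 1226 and 558 on array A, above all scrambled arrays, and 318 and 140 on array C, within the scrambled range. The faintest, 214108_at, read 110 on array A, below the scrambled 146 to 414, and 194 and 287.5 on arrays B and C, within it. On array A 4 of 5 MAX probe sets were thus above all scrambled arrays (16.5% of all probe sets), and on array C 1 of 5 (22.4%). Averaged over its probe sets, MAX differed by 0.12 with 6 arrays.

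**Figure D3:**
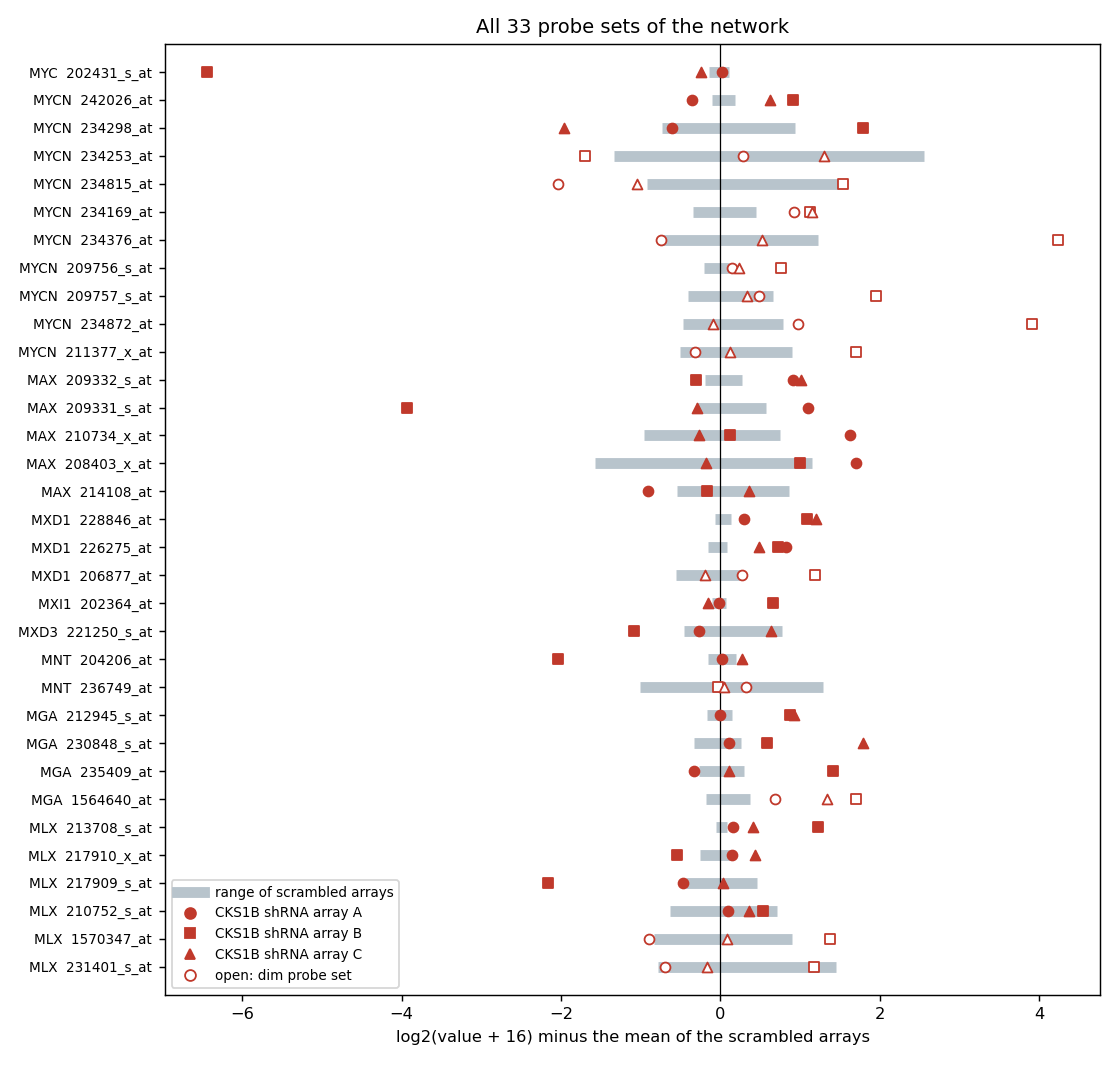
Each of the 33 probe sets of the network on the CKS1B shRNA arrays (red circle, A; square, B; triangle, C) as log2(value + 16) minus the mean of the scrambled arrays, with the range of the scrambled arrays as a grey bar. Filled symbols mark the 20 probe sets above the median of all probe sets. MYC on array B, at -6.44, is the farthest from 0, and the 2 bright MXD1 probe sets lie to the right of the grey bar on all 3 arrays.

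MXD1, a repressor that is induced when cells leave the cycle and differentiate, read higher on every CKS1B shRNA array. Its brightest probe set, 228846_at, read 346, 396 and 343 with the scrambled shRNA and 446, 785 and 846 with the CKS1B shRNA, a mean of 362 ± 29.3 against 692 ± 215 (SD, n = 3). The groups did not overlap, and arrays B and C read highest. The log2 difference was 0.86 (SE 0.35), or 1.81-fold, with an unadjusted p of 0.0397 and an adjusted p of 0.933 in limma. An exact two-sided permutation test gave p = 0.1, the smallest possible, as it must where groups of this size do not overlap. MLX gave the same. Among the 500 genes of like scrambled level, the deviation was at or below that of MXD1 in 98.2% on array C, 84.4% on array A and 76.4% on array B, against 23.6% to 73.8% on the scrambled arrays. The median deviation of these genes on array B was 0.44, where MXD1 deviated by 1.09. With array B left out the log2 difference was 0.74 (SE 0.35, adjusted p = 0.524).

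A further MXD1 probe set, 226275_at, showed the same order with other arrays in the lead. It read 328, 326 and 274 with the scrambled shRNA and 556, 521 and 437 with the CKS1B shRNA, again without overlap (log2 0.68, and 0.65 without array B). The dim 206877_at read 20.9 to 50.8 and 31.4 to 107.6, and the groups overlapped. MXD1 is the only network gene in which more than 1 probe set above the median separated the groups with all 6 arrays. Neither passed limma over all probe sets.

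MXI1, a repressor that responds to hypoxia, was level on all arrays but CKS1B shRNA array B. Its probe set read 3058, 2986 and 2708 on the scrambled arrays and 2868, 4594 and 2612 on those of the CKS1B shRNA. Array B was the highest of all and array C the lowest. The log2 difference of 0.16 (SE 0.37, adjusted p = 0.957) became -0.09 without array B. Genes of like level had a median deviation of -1.22 on array B, where MXI1 deviated by 0.65 and 92.2% of them lay at or below it.

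MXD3, the repressor found in dividing cells, was dim and varied within the groups. It read 149, 166 and 372 with the scrambled shRNA and 172, 90.4 and 335.5 with the CKS1B shRNA. The C arrays were the highest of each group, and the groups overlapped (log2 -0.24, SE 0.63, adjusted p = 0.963, and 0.18 without array B).

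MNT, the most widely expressed of the repressors, read 892, 968 and 1138 on the scrambled arrays and 1009, 229.5 and 1200 on those of the CKS1B shRNA. Array B was again the lowest, while array C read just above the scrambled range. The log2 difference was -0.58 (SE 0.59, adjusted p = 0.933) and 0.14 without array B. On array B MNT deviated by -2.04 and genes of like level by a median of -0.34, with 10.2% of them at or below MNT. The dim 236749_at read 54.4 to 327 and 123 to 161, and the groups overlapped.

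MGA, the giant MAX partner that also carries a T-box domain, read higher on CKS1B shRNA arrays B and C but not on array A. The brightest probe set, 212945_s_at, read 811, 708 and 884 with the scrambled shRNA and 797, 1469 and 1524 with the CKS1B shRNA. Of the CKS1B shRNA values, that of array A was inside the scrambled range and the other 2 above it (log2 0.60, SE 0.35, adjusted p = 0.933, and 0.46 without array B). The probe set 230848_s_at read 359 to 547 on the scrambled arrays and 493, 693 and 1615 on the others, the same order of arrays. The probe set 235409_at read 437 to 653 against 416, 1427 and 568, with only array B above. The dim 1564640_at read 11.2 to 23.9 against 33.7, 84.5 and 62.2, without overlap. On array C 3 of 4 MGA probe sets were above all scrambled arrays, on array B 4 of 4 and on array A 1 of 4. Of all probe sets 22.4%, 55.8% and 16.5% were above on these arrays, so on array B most were. On array C 92.8% of genes of like level deviated by no more than MGA did upwards.

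MLX read higher on all CKS1B shRNA arrays through 1 of its 6 probe sets. That brightest probe set, 213708_s_at, read 2026, 1839 and 1898 with the scrambled shRNA and 2139, 4516 and 2562 with the CKS1B shRNA. The groups did not overlap, although array A exceeded the highest scrambled array only slightly. The log2 difference was 0.60 (SE 0.39, adjusted p = 0.933) and 0.28 without array B (SE 0.21, adjusted p = 0.660). The next probe sets differed from it: 217909_s_at read 874 to 1637 on the scrambled arrays and 851, 253 and 1212 on the CKS1B shRNA arrays, with arrays A and B below. The probe set 217910_x_at read 903 to 1213 and 1196, 736 and 1460, with array B below and array C above. The faint 210752_s_at read 141 to 381.5 and 246 to 339, and the dim 1570347_at and 231401_s_at overlapped as well. On array B the MLX probe sets spread in both directions, and averaged over probe sets the gene differed by 0.06.

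As deviations from each gene's own scrambled mean, MYC lay below the median of the repressor partners on CKS1B shRNA arrays B and C. It lay below each of them there too, but on array C only slightly below MXI1 (-0.24 against -0.16). The repressor value is the median of 5 genes (MXD1, MXI1, MXD3, MNT and MGA). On the scrambled arrays MYC minus that median was 0.16, -0.11 and -0.10 on the log2 scale. With the CKS1B shRNA it was 0.02 on array A, within that range, on array C -0.87 and on array B -7.09. Each scrambled array is part of the scrambled mean and the CKS1B shRNA arrays are not, which narrows the scrambled range. The repressor median itself was 0.00 on array A, 0.65 on array B and 0.63 on array C, and -0.06 to 0.14 on the scrambled arrays. The median on array C is the value of MXD3, which deviated by 0.78 on scrambled array C as well. On array B the repressors ranged widely, with MNT and MXD3 low and MXD1, MGA and MXI1 high.

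MYC against MXD1 alone gave 0.16, -0.28 and 0.11 on the scrambled arrays and -0.28, -7.53 and -1.43 with the CKS1B shRNA. Array A lay at the edge of the scrambled values and the others below. MYC against MXI1 gave 0.03, -0.18 and 0.15 with the scrambled shRNA and 0.04, -7.09 and -0.08 with the CKS1B shRNA, so that only array B lay outside the scrambled values. With MYCN counted in, the median of the 2 activators minus that of the repressors was 0.07, 0.05 and -0.17 on the scrambled arrays and -0.17, -3.42 and -0.44 on the CKS1B shRNA arrays. These are differences within an array, members are not replicates, and the values were not tested. On array B the genes of like scrambled level had a median deviation of -2.27 for MYC, 0.44 for MXD1 and -1.22 for MXI1. For MXD3, MNT and MGA it was 0.89, -0.34 and -0.05. On array C it was 0.40 for MYC and -0.10 for MXD1. The part of these shifts in the differences was not tested. The 3'/5' actin ratio was also highest on arrays B (12.4) and C (2.93). The GAPDH ratio was 4.70 and 1.18 on them, and 1.17 on scrambled array C. The part of these ratios was not tested.

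**Figure D4:**
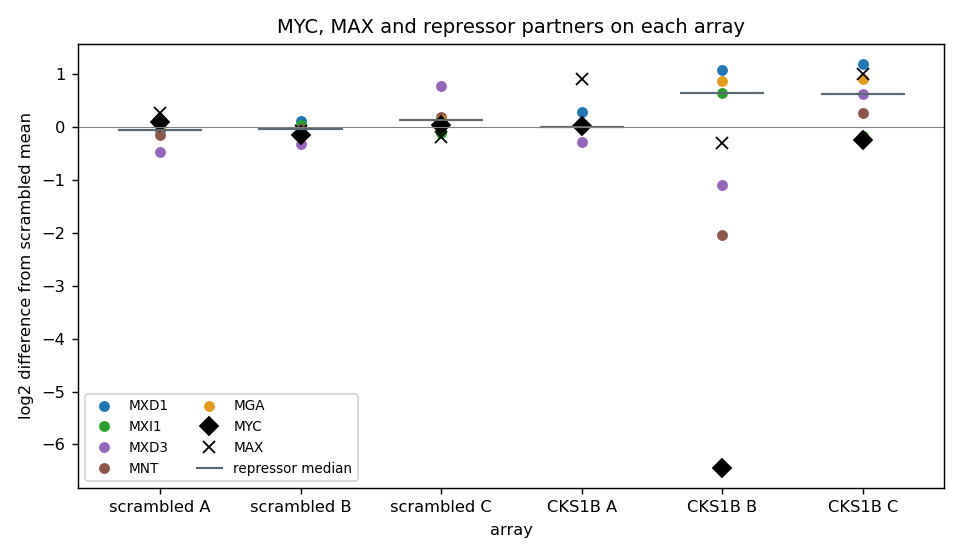
Log2 difference of MYC (diamond), MAX (cross) and 5 repressor partners (coloured points) from the mean of the scrambled arrays on each of the 6 arrays, with the repressor median as a line. MYC lies between -0.24 and 0.10 on 5 arrays and at -6.44 on CKS1B shRNA array B, while the repressor median is 0.65 and 0.63 on arrays B and C.

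Partners and targets of the network were read from 8 lists, none of whose genes passed limma in either fit. They are given as counts and medians beside those of all genes tested, where 44.3% were higher with 6 arrays (median -0.08) and 46.7% without array B (median -0.03). Among MYC coactivators 7 of 14 genes tested were higher and 7 lower (median -0.01). KAT5, the TIP60 histone acetyltransferase, read 1004 to 1728 with the scrambled shRNA and 2031, 2303 and 2155 with the CKS1B shRNA, without overlap (log2 0.61, adjusted p = 0.933). Another KAT5 probe set also separated the groups, and the last read 499.5 on array B. CDK9, the elongation kinase that MYC recruits, read 419 to 634 and 389, 236 and 313 (log2 -0.70). TRRAP, the scaffold of acetyltransferase complexes, read 1243 to 1771 and 1563, 110 and 655 (log2 -1.62, and -0.61 without array B).

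The list of SIN3-HDAC and NCOR corepressors includes SIN3, which MXD proteins recruit. Of its 16 genes tested 4 were higher and 12 lower (median -0.33), and 11 higher and 5 lower without array B (median 0.21). The turn came from array B, where HDAC2 read 204 against 3352 to 4972 on the other arrays and HDAC3 197 against 1049 to 2029. A fainter HDAC2 probe set read 350.7 on array B, within the 205 to 366 of the others. SAP130, a subunit of the SIN3 complex, read 671 to 1024 and 1150, 2112 and 1158 (log2 0.70, adjusted p = 0.933), without overlap. In the MGA complex 4 of 11 genes were higher and 7 lower (median -0.26, and -0.11 without array B). Its subunit TFDP2, an E2F dimer partner, read 1098 to 1328 and 997, 536 and 902 (log2 -0.60), and its 2 next probe sets also read lower on all CKS1B shRNA arrays. The faintest TFDP2 probe set overlapped and went the other way (log2 0.43, and 0.44 without array B). TFDP1 read 4346 to 4425 and 4310, 1123 and 2849 (log2 -0.86), while another TFDP1 probe set read higher on arrays A and C. PCGF6, the Polycomb subunit of that complex, read 605 to 792 and 1041, 1476 and 601, with array C below the scrambled range.

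Of the list of MYCL, the Mondo proteins and their targets, all 3 genes tested were lower in both fits (median -0.25, and -0.54 without array B). TXNIP, the glucose-induced target of Mondo and MLX, read 787, 2365 and 1249 with the scrambled shRNA and 722, 1366 and 645 with the CKS1B shRNA. Arrays A and C lay below all scrambled arrays and array B within their range (log2 -0.61, adjusted p = 0.933, and -0.94 without array B, adjusted p = 0.503). A further TXNIP probe set gave the same order, and the last separated the groups. MLXIP (MondoA) read 726 to 1008 and 618, 820.5 and 781 (log2 -0.25), with array A below, while a further probe set read 2389 on array B and 489 to 729 elsewhere. MYCL, a further MYC family gene, read 364 to 427 and 227, 641 and 301, with arrays A and C below and array B above, and its other probe set overlapped.

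Among genes that act on the MYC protein, 5 of 16 were higher and 11 lower (median -0.23, and -0.30 without array B). USP28, a deubiquitinase that counters FBXW7, read 1359, 1448 and 2326 with the scrambled shRNA and 752, 528 and 915 with the CKS1B shRNA. The groups did not overlap (log2 -1.20, SE 0.36, unadjusted p = 0.0111, adjusted p = 0.933, and -0.99 without array B), but its other 2 probe sets overlapped. PIM1, a kinase that phosphorylates MYC, read 1872 to 3346 and 1955, 934 and 814, with arrays B and C below the scrambled range (log2 -1.03). PLK1 read 1945 to 2803 and 2284, 611 and 1224, with the same arrays low (log2 -0.87).

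Of the genes that MYC induces, 3 of 32 were higher and 29 lower with 6 arrays (median -0.57), and 22 were higher and 10 lower without array B (median 0.18). The median shift of the list relative to all genes was 0.16, -1.78 and 0.17 with the CKS1B shRNA. It was -0.10 to 0.14 on scrambled arrays taken singly against the remaining 2. Array B also read low for bright genes at large, with the median of -2.27 given above for the 500 genes of MYC-like level, and the part of this in the list's shift was not tested. Without array B the groups did not overlap in 13 of the 32 with the CKS1B shRNA higher (13.7% of all genes) and in 4 with it lower (14.6%). The 500 genes of MYC-like level also deviated upwards on arrays A and C, with medians of 0.21 and 0.40. The part of this in the counts was not tested. In that fit NPM1 and HSPD1 were read from another probe set than with 6 arrays. POLR1B, of RNA polymerase I, read 1772 to 2542 and 1635, 366 and 1335 (log2 -1.24, adjusted p = 0.933), though its other probe sets overlapped. HK2, a hexokinase, read 1259 to 1485 and 1111, 550 and 937 (log2 -0.67), without overlap through that probe set. CDK4, the G1 kinase, read 5494 to 6471 and 5520, 1267 and 3397 (log2 -1.03).

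Of genes that MYC represses with ZBTB17 (MIZ1), 4 of 7 were higher and 3 lower (median 0.24), and 5 of 6 were higher without array B (median 0.33), where NDRG2 was too dim to be tested. CDKN1B, the CDK inhibitor p27, read 1491 to 2710 and 4337, 6957 and 4212, without overlap (log2 1.39, unadjusted p = 0.00985, adjusted p = 0.933). NDRG2 read 84.6 to 124.5 and 174, 531 and 144.5 (log2 1.17). It exceeded the median of all probe sets through CKS1B shRNA arrays alone, and another NDRG2 probe set read lower on all CKS1B shRNA arrays. NDRG1 read 10091 to 12064 and 11048, 657 and 8348 (log2 -1.44, and -0.16 without array B). Regulators of MYC transcription were lower in 9 of 10 with 6 arrays (median -0.26) and in 6 of 10 without array B (median -0.16). CTCF, an insulator protein, read 1926 to 3190 and 2756, 624 and 1919 (log2 -0.81). MYB read 2203 to 4252 and 3865, 806 and 1795 (log2 -0.75), and STAT3 read 1738 to 2813 and 1853, 1279 and 1867 (log2 -0.43). Of the other STAT3 probe sets above the median, 2 were higher with 6 arrays (0.28 and 0.47) and 1 lower (-1.21).

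**Figure D5:**
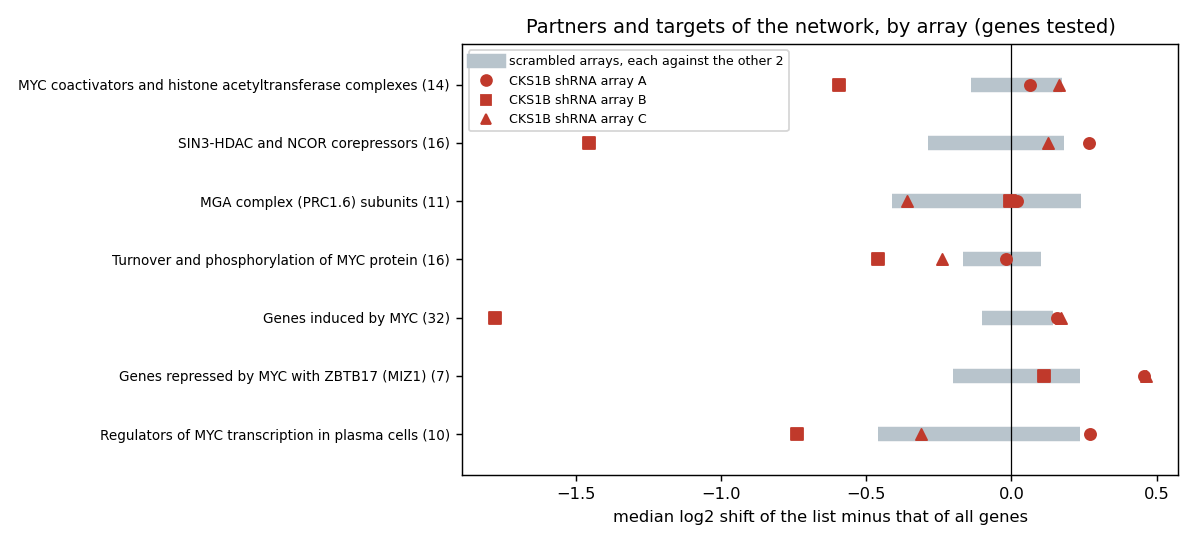
Median log2 shift of each list of partners and targets minus that of all genes, on CKS1B shRNA arrays A (circle), B (square) and C (triangle), with the range of single scrambled arrays against the remaining 2 as a grey bar. The number of genes tested is in brackets, and the list with 3 genes is left out. The genes that MYC induces lie at -1.78 on array B and at 0.16 and 0.17 on arrays A and C.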

How the data were processed

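Each array has 1 deposited intensity per probe set on a linear scale, which the authors made with MAS5, as the submitters' processing notes say. The version and parameters of that program are not given in the sources used. The trimmed mean is the same on all arrays, but the spread of values need not be. Of 54675 probe sets 62 controls were left out. Names came from the platform annotation, updated through Entrez identifiers to RefSeq symbols of assembly GRCh38.p14: 41091 probe sets had 1 gene, 1801 several and 11721 none.

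Values were turned into log2(value + 16). The gene fit kept, for each gene, its brightest probe set among those with a mean log2 value above the median of 7.34. A further fit held all 54613 probe sets without a filter. The labels gave the groups, which limma 3.58.1 compared under R 4.3.3 (eBayes with trend after lmFit, no covariates), with Benjamini-Hochberg adjustment over all features and a threshold of 0.05. Single genes were also tested by exact permutation of the 6 arrays. Fits were tested on simulated data. Figures used Python 3.11.15 and matplotlib 3.10.9. Named genes were all members, CKS1B, the 3 of smallest p per list and the 5 most correlated with MYC. The members and lists were chosen with earlier results of these data known. Alternatives were other pseudocounts, no filter, median centring, quantile normalization, the letter as a block, array weights, averaged probe sets, no trend, and leaving out each array. Quantile normalization without CKS1B shRNA array B and leaving out both arrays of letter B were added after seeing the data. The number of arrays limits the precision.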

Additional observations from a re-analysis of the deposited data

How the results depend on the processing

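No network gene passed limma under any alternative run. Over all genes 4 passed with array weights, 2 with quantile normalization without CKS1B shRNA array B, 1 without both arrays of letter B and 0 to 6 when each array was left out. Over all probe sets the counts were 86, 2, 16 and 0 to 11. CKS1B passed at -3.80 with array weights, -3.69 with quantile normalization without array B and -3.59 without both arrays of letter B, and ranged from -4.41 to -3.63 when each array was left out. With the letter as a replicate block, 0 genes passed and MYC stayed at -2.22 (adjusted p = 0.937). Deviations from the group means correlated at 0.40, -0.08 and -0.08 between arrays of the same letter. CKS1B shRNA array B weighs on the mean of its group, so these values cannot decide whether the letters mark pairs. The highest correlation between arrays, 0.958, was that of the A arrays. The main fit did not take the letters as pairs. MYC kept its direction throughout, from -3.34 without CKS1B shRNA array A to -0.11 without array B. It was -0.27 with array weights and -0.46 (adjusted p = 0.499) with quantile normalization without array B. The median of MYC and MYCN turned from -0.91 to 0.15 in that last setting and to 0.34 without array B, where MYCN is read from another probe set. That median minus the repressor median went from -1.07 to 0.16 without array B and stayed negative under the other alternatives (-2.38 to -0.16). The repressor median turned from 0.16 to -0.076 with median centring.

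MAX, MXD1, MGA and MLX stayed higher under every alternative. MYCN turned to -0.10 with a pseudocount of 64 and -0.26 with quantile normalization, and ranged from -0.63 to 0.79 when each array was left out. MXI1 turned to -0.076 with median centring, -0.087 with array weights, -0.17 with quantile normalization without array B and -0.072 without both letter B arrays (-0.090 to 0.32 leaving out arrays). Under array weights and these last 2 settings MXD3 turned to 0.32, 0.34 and 0.023, and MNT to 0.11, 0.15 and 0.13. Leaving out arrays gave -0.68 to 0.18 for MXD3 and -1.01 to 0.14 for MNT. The cause was not tested. Median centring moved the median of all genes from -0.08 to -0.31 and the share of genes that were higher from 44.3% to 28.3%.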
